A study of Mus musculus with 2 samples.

Results

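Dentate granule cells are the principal neurons of the dentate gyrus, the entry gate of the hippocampal circuit. Accessible chromatin of hippocampus tissue was examined here at 10 of their marker genes, chosen by name: Prox1, C1ql2, Dsp, Calb1, Npnt, Trpc6, Glis3, Dock10, Tdo2 and Lct. Peaks at these genes can come from any cell type of the tissue. All 10 were present among the 21853 protein-coding genes of the annotation (GENCODE M21). The data were DNase-seq, in which DNase I cuts DNA that is not wrapped in nucleosomes, from hippocampus of male B6CASTF1/J mice aged 2 months. B6CASTF1/J is a first-generation cross, so both parental chromosomes were read on 1 reference assembly, mm10. The labels name a layer of the hippocampus without saying which. They give 2 biological replicates from separate biosamples under 1 donor entry, untreated as far as the labels say, and form 1 group. No comparison between groups and no test of a difference could therefore be made, and the spread between the replicates may be partly technical.

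The markers span several roles. Prox1 encodes a homeodomain transcription factor needed for granule cell identity, and Glis3 a zinc-finger transcription factor. C1ql2 encodes a secreted C1q-like protein of mossy fibre synapses, the output synapses of granule cells. Calb1 encodes the calcium-binding protein calbindin, Trpc6 a cation channel and Dock10 a guanine nucleotide exchange factor. Npnt encodes the matrix protein nephronectin and Dsp the desmosomal protein desmoplakin. Tdo2 (tryptophan dioxygenase) and Lct (lactase) encode enzymes best known from other organs that serve as granule cell markers in hippocampus. An active promoter and its distal elements are usually accessible, and short stretches covered by bound protein inside them are protected from cutting, which is seen as footprints.

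The sequences below show what the deposited footprints cover at the 5′ starts of Prox1, Calb1, Trpc6 and Dock10. Each is the part of a promoter peak that lies upstream of the annotated gene, from the GRCm38 reference genome of RefSeq, written 5′ to 3′ on the strand of the gene. Capitals mark bases inside a deposited footprint of either replicate.
Prox1 (chr1:190170715-190170840, minus strand): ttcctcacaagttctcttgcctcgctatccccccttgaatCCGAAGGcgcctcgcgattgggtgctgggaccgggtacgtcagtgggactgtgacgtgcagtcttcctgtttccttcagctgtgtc
Calb1 (chr4:15881161-15881263, plus strand): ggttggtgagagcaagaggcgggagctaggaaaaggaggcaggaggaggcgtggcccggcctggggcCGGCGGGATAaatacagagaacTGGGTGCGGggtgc
Trpc6 (chr9:8543981-8544141, plus strand): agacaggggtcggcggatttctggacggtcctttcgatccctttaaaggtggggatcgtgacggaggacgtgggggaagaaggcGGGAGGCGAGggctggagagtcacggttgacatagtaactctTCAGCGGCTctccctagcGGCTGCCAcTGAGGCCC
Dock10 (chr1:80758528-80758800, minus strand): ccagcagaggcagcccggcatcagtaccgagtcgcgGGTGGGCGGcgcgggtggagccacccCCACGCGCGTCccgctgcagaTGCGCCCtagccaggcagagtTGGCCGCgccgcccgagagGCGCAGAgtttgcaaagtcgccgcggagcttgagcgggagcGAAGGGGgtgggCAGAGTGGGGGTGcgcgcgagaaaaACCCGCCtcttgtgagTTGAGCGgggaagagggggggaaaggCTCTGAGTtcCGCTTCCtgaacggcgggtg
The Dock10 stretch held 7 footprints in replicate 1 and 5 in replicate 2, and 8 bases were covered in both replicates. The Trpc6 stretch held 3 and 2, with 7 bases in common. The Calb1 stretch held 1 in each replicate, and these shared no base. The Prox1 stretch held 1 footprint of 7 bases in replicate 1 and 0 in replicate 2. The like stretch of C1ql2 (161 bp), not printed, held 0 footprints in either replicate. That of Glis3 (223 bp), also not printed, held 1 in replicate 1 and 0 in replicate 2. GGGCGG, the core letters of the Sp and KLF factor motif, lay whole inside footprint bases 1 time in the Dock10 stretch (bases 40 to 45, counted from its 5′ end). Its reverse complement in the same stretch (bases 113 to 118) had 0 bases covered, as did every match in the Glis3 stretch. These letters, on either strand, were found in 9 of the 51 shared sites near the members (17.6%), against 27.9% of 200 bp windows centred on all shared sites. Outside promoter windows the shares were 1 of 34 (2.94%) and 13%.

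A second set of sequences comes from sites away from any start site that were accessible in both replicates. They were chosen because E-box letters, the CANNTG motif read by basic helix-loop-helix factors such as the Neurod family, fall in their footprints.
Glis3 intron (chr19:28436521-28436760, minus strand): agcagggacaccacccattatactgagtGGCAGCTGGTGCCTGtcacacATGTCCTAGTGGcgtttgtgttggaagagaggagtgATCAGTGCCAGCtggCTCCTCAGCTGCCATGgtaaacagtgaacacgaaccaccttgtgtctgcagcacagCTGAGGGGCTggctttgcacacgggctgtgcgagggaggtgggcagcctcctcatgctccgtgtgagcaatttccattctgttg
Prox1 upstream (chr1:190213261-190213420, minus strand): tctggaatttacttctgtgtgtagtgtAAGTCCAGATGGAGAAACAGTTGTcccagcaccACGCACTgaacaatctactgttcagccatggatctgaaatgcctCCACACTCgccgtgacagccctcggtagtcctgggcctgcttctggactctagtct
C1ql2 upstream (chr1:120323381-120323536, plus strand): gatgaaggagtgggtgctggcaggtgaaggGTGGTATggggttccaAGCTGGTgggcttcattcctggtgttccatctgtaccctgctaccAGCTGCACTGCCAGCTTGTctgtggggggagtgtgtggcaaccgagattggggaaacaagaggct
Dock10 upstream (chr1:80763714-80763792, minus strand): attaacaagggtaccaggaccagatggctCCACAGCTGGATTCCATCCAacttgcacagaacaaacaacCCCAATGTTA
Lct intron (chr1:128324967-128325019, minus strand): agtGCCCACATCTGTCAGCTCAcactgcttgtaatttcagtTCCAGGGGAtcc
CAGCTG occurred 4 times in the Glis3 intron sequence, and each occurrence had at least 3 of its bases inside a footprint. CAGATG lay whole inside a footprint in the Prox1 upstream sequence (bases 33 to 38). In the Lct intron sequence its reverse complement did so (bases 9 to 14). CAGCTG lay whole inside a footprint in the Dock10 upstream sequence (bases 33 to 38), and with 5 bases in the C1ql2 upstream sequence (bases 91 to 96). CAGATG also stood outside footprints, with 0 bases covered, in the Dock10 upstream sequence (bases 21 to 26) and, as its reverse complement, in the C1ql2 upstream sequence (bases 74 to 79). A shared site at -36093 bp from Npnt, not printed, held 3 matches to CAGATG or CAGCTG, on either strand, with 0 bases covered. Another CANNTG match there, CACATG, lay partly inside a footprint. These matches are a description of letters, not of a bound factor.

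All 10 markers had a promoter peak in replicate 1, where 63.4% of protein-coding genes did, and 7 of 10 had one in replicate 2, where 58.5% did. A promoter peak was a peak of the authors' longer list within 500 bp on either side of a protein-coding start. The 7 markers, C1ql2, Calb1, Dock10, Npnt, Trpc6, Glis3 and Dsp, had overlapping peaks in both replicates, against a background of 57.1%. With lists of equal length 4 members had overlapping peaks, and Dsp and Trpc6 then had a peak in 1 replicate. C1ql2, Calb1, Npnt, Glis3 and Dock10 kept a peak in each replicate, not all of them overlapping. The share of all genes at this setting is not given. In the shorter lists Dsp had 0 and Glis3 had one in replicate 1 only. Prox1, Tdo2 and Lct had a promoter peak in replicate 1 only, as did 5.55% of all genes. No marker was seen in replicate 2 only (0.696% of all genes) or in neither replicate (35.9%).

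The promoter peaks of the markers were low. Heights are in signal units as the authors deposited them, replicate 1 first. The median over members of the highest promoter peak was 1.06 (10 members) and 1.20 (7 members), against 3.67 and 2.43 over all genes with one. In replicate 1 the members ranged from percentile 5.33 (Dsp) to percentile 32.7 (Calb1) of all such genes. In replicate 2 the 7 members ranged from percentile 3.97 (Dsp) to 44.0 (C1ql2). In whole tissue, fewer cells with an open promoter and less opening per cell cannot be told apart.

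**Figure D1:**
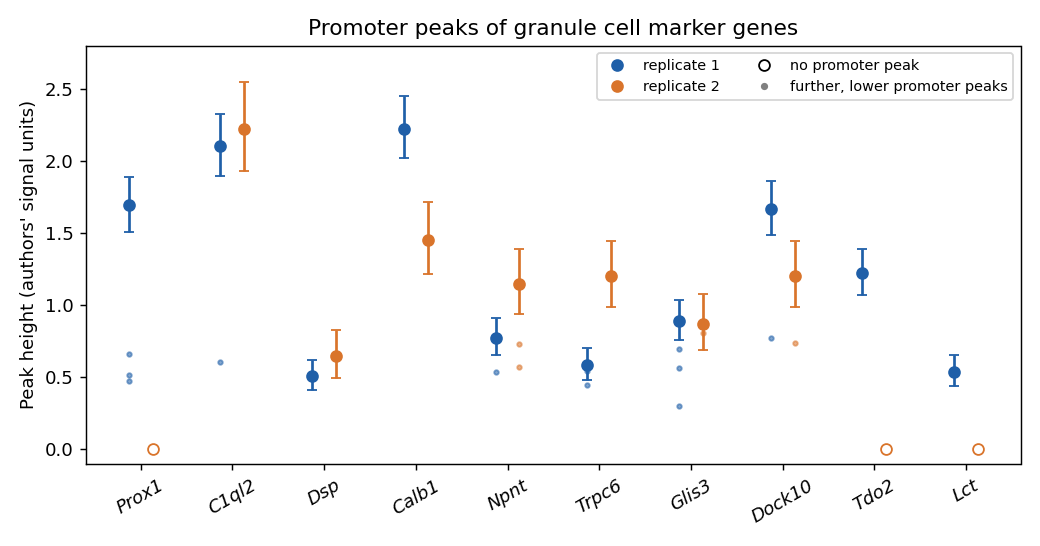
Height of the promoter peaks of the 10 markers (signal units), replicate 1 in blue and replicate 2 in orange; large points are the highest peak with a 95% exact Poisson interval for counting error, small points further promoter peaks, and open circles at 0 mark no promoter peak. Prox1, Tdo2 and Lct carry an open circle in replicate 2, and C1ql2 is the highest in that replicate at 2.23.

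C1ql2 and Calb1, the synaptic protein and the calcium buffer, had the highest promoter peaks. At C1ql2 (chromosome 1, 120340582 to 120343174) the height was 2.11 in replicate 1 (95% exact Poisson interval 1.90 to 2.33) and 2.23 in replicate 2 (1.93 to 2.55). The replicates overlapped within counting error. At Calb1 (chromosome 4, 15881264 to 15908064) the heights were 2.22 (2.02 to 2.45) and 1.45 (1.22 to 1.72), lower in replicate 2. These intervals take 1 step of the height scale (0.00535 and 0.0108) as 1 counted cut, which is read from the values, and cover counting error only. At both genes the peak lay on the start itself, and the lowest false discovery rate (FDR) inside it was 6.82e-18 and 8.57e-10 at C1ql2 and 1.91e-21 and 8.75e-07 at Calb1.

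Dock10 and Npnt opened at several starts. Dock10, a gene of 257455 bp on chromosome 1 (80501073 to 80758527), has 7 coding start positions, and shared peaks lay at its 5′ start (1.67 and 1.20) and at an internal start 48929 bp further in (0.775 and 0.742). Replicate 2 had a further peak of 1.18 over the first bases of the gene. No peak of the longer list of replicate 1 overlapped it, but a peak of the shorter list of replicate 1 did. Replicate 1 listed FDR values over 379 bp there, as low as 4.18e-07. Npnt (chromosome 3, 132881745 to 132950291) had 2 shared start sites, with heights of 0.775 and 1.15 nearest the 5′ start and 0.535 and 0.732 at the next. Both Npnt sites were higher in replicate 2.

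Trpc6 had a broad, low start region, and the start peaks of Glis3 were also low. The Trpc6 peak (chromosome 9, 8543981 to 8544800) spanned 820 bp with the same bounds in both replicates and held 8 footprints in replicate 1 and 7 in replicate 2. Its height was 0.583 (0.479 to 0.703) in replicate 1 and 1.20 (0.992 to 1.45) in replicate 2, and these intervals did not overlap. Replicate 1 listed shorter peaks of 0.545 and 0.449 inside the same span. At Glis3 (chromosome 19, 28258851 to 28680077) the highest peak of replicate 1, 0.893, spanned the 5′ start and was centred at -93 bp. The peaks of replicate 2, 0.871 and 0.807, were centred 227 and 453 bp inside the gene. The replicate 1 peak over the start had only 7 bp of listed FDR in replicate 2, with a lowest value of 0.0448. A long noncoding RNA gene on the opposite strand, D930032P07Rik, covers the same Glis3 start bases, and accessibility does not tell the genes apart.

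Dsp had the lowest promoter peak shared by both replicates. Its heights were 0.508 (0.411 to 0.621) and 0.645 (0.493 to 0.831), which overlap, at a site centred 191 bp inside the gene in replicate 2 (gene on chromosome 13, 38151294 to 38198577). The site lies inside Gm10129, a gene of the opposite strand (38150477 to 38151792), and accessibility does not tell the genes apart. No peak of the shorter list lay at the Dsp start in either replicate. The shorter lists held promoter peaks of 8 members in replicate 1, all but Dsp and Lct, and of 5 in replicate 2, C1ql2, Calb1, Npnt, Trpc6 and Dock10. Backgrounds were 58.8% and 52.5%, and 51.9% in both.

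The Prox1 promoter was open in replicate 1 and had no listed signal in replicate 2. In replicate 1 it carried 4 peaks, of heights 1.70, 0.663, 0.513 and 0.476, the highest centred at -26 bp from the 5′ start (gene on chromosome 1, 190118035 to 190170714). The FDR was listed over 664 bp of the Prox1 start windows in replicate 1, with a lowest value of 3.4e-11 in the highest peak. In replicate 2 the start windows had 0 peaks, 0 bases of listed FDR (the file lists only values under 0.05) and 0 footprints. The nearest replicate 2 peak was 3464 bp upstream, with a height of 0.914. Of 628 genes whose highest promoter peak in replicate 1 was within 10% of that of Prox1, 93.8% had a promoter peak in replicate 2. Dock10, at 1.67 in replicate 1, was among those. The antisense gene Prox1os starts inside the Prox1 gene and covers the same promoter bases.

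Tdo2 and Lct, the enzyme genes, were also seen in replicate 1 only, at weaker or more distant peaks. The Tdo2 peak (height 1.22, interval 1.07 to 1.39) was centred 352 bp inside the gene (chromosome 3, 81957090 to 81976202). Replicate 2 listed 3 bp of FDR there, with a lowest value of 0.0496. Of 550 genes with a like height in replicate 1, 83.8% had a replicate 2 promoter peak. The Lct peak (0.540, interval 0.440 to 0.656; gene on chromosome 1, 128284756 to 128328318) was centred 597 bp inside the gene and reached only the edge of the 500 bp window, in which 1 bp had a listed FDR (0.0458). For a like height the share with a replicate 2 peak was 50.1%. With a window of 200 bp, neither Tdo2 nor Lct had a promoter peak in either replicate.

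**Figure D2:**
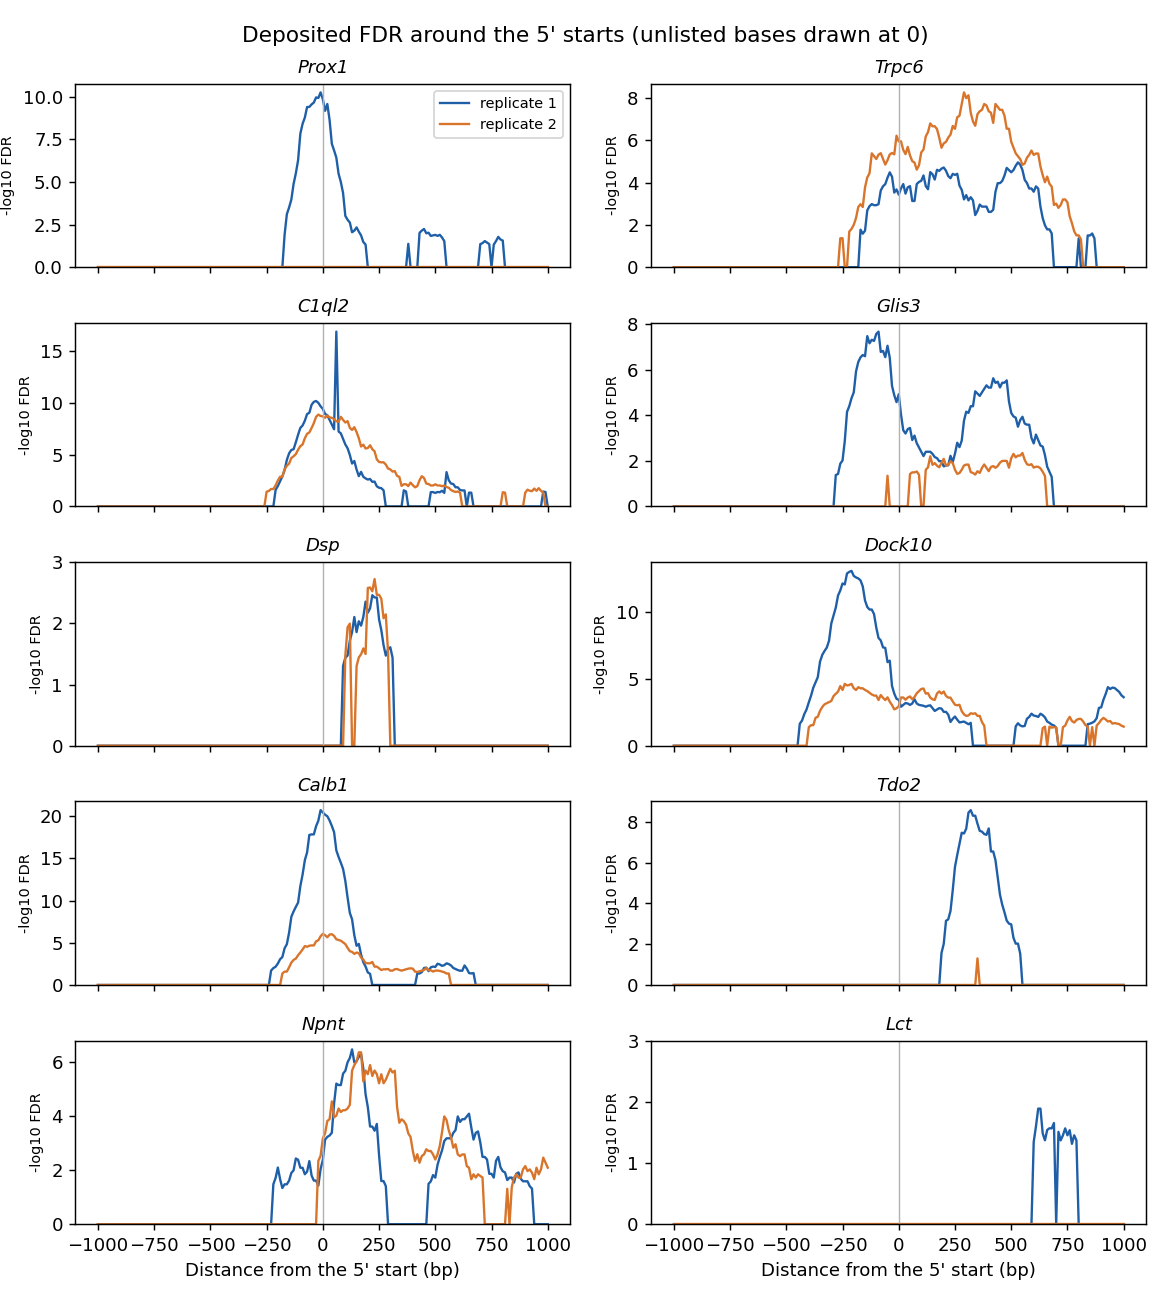
Deposited FDR as -log10 around the 5′ start of each marker, read every 10 bp along the gene's strand (x axis in bp), with bases that the file does not list drawn at 0. Replicate 2 (orange) stays at 0 over Prox1 and Lct, while both replicates rise together over C1ql2, Calb1, Dsp and Trpc6.

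Base composition set Tdo2 and Lct apart from the other members. In 500 bp on either side of the 5′ start, the GC content was 46.5% at Tdo2 and 49.0% at Lct, with CpG observed over expected of 0.0747 and 0.187. The other 8 members had values from 0.615 (Trpc6) to 0.874 (Dsp), and GC contents from 51.6% (Calb1) to 69.6% (Npnt). Prox1, at 61.5% and 0.794, lay with these 8. Over all genes the median CpG ratio was 0.735 for promoters open in both replicates, 0.41 for those with a peak in replicate 1 only and 0.18 for those in neither.

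**Figure D3:**
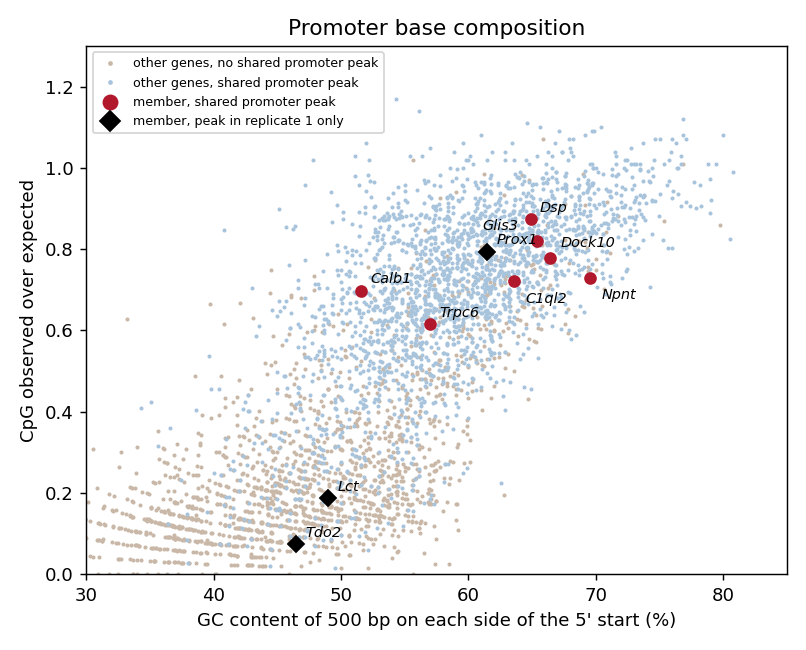
CpG observed over expected against GC content (%) of the 5′ promoter window, for the members (large symbols) and a fixed random draw of protein-coding genes (dots). Tdo2 and Lct have the lowest values of the 10 members on both axes, while their GC contents lie well inside the range of the drawn genes, and Prox1 lies among the members with shared promoter peaks.

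Over the gene bodies and 50 kb on each side, the 10 genes held 164 peaks in replicate 1, 66 in replicate 2 and 51 shared sites, the overlaps of at least 1 bp. A peak that overlapped more than 1 peak of the other replicate could give more than 1 shared site. Both shared sites near Tdo2 lie in its only replicate 2 peak, and 2 neighbouring Prox1 sites carry the same replicate 1 height (1.45). Of these 51, 10 lay at a start of the member itself, 7 at starts of neighbouring genes, 5 over exons, 16 in introns and 13 between protein-coding genes. The highest shared sites outside the members' promoters were often promoters of neighbours. These were Ubxn4 near Lct (4.15 and 2.95), Nbn near Calb1 (2.78 and 4.02), Snrnp48 near Dsp (3.65 and 2.82) and Ctso near Tdo2 (3.48 and 2.10). Apart from such neighbours Calb1 had 0 shared sites beyond its own start, and Tdo2 had 0 shared sites, its own start included.

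Glis3 held the most shared sites, 12 over a region of 521.2 kb, followed by Dock10 with 9 and Prox1 with 7. In the shorter lists Glis3 had 5, Trpc6 4, Dock10 2, and Prox1 and C1ql2 1 each, and with a flank of 10 kb Prox1 had 1, so that the order below Glis3 changed. In the longer lists, per 100 kb, the order was Prox1 (4.58), C1ql2 (3.90), Lct (3.48), Dock10 (2.52), Calb1 (2.37), Glis3 (2.30), Dsp (2.04), Npnt (1.78), Tdo2 (1.68) and Trpc6 (1.27). The median member had 2.33, against 3.30 over all protein-coding genes, and 3 of 10 members, Prox1, C1ql2 and Lct, lay above that median. Prox1 was at percentile 65.0 of all genes and Trpc6 at percentile 23.8. For Lct, 2 of the 5 sites were starts of other genes.

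**Figure D4:**
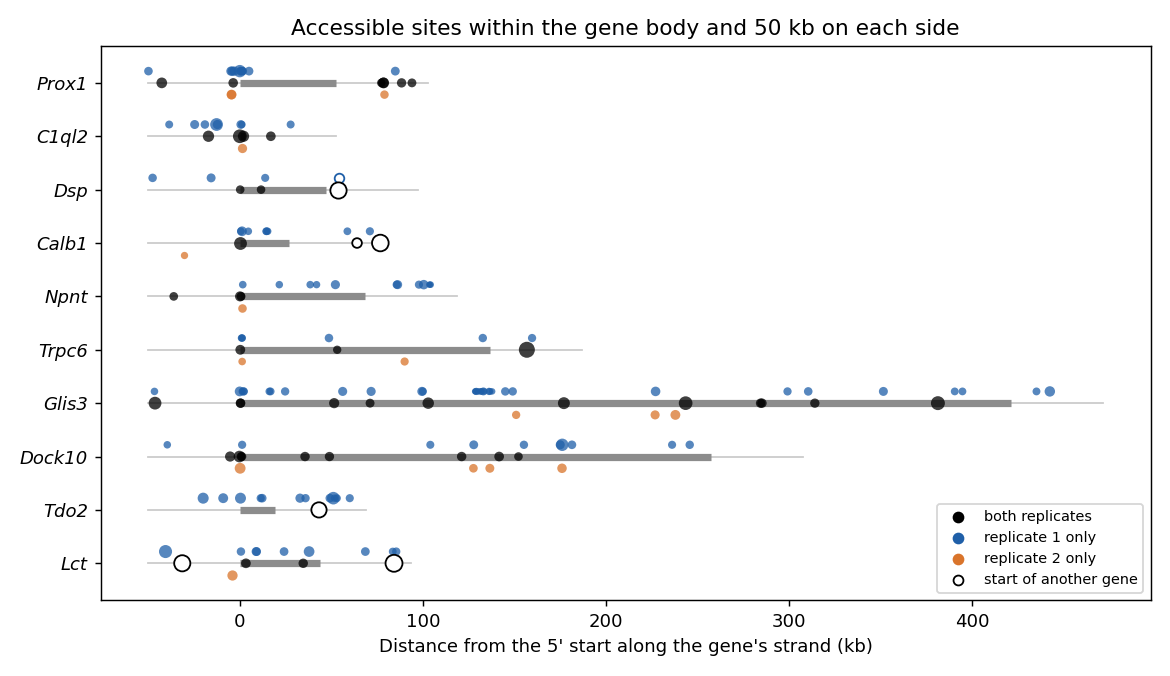
Accessible sites of each marker by distance from the 5′ start (kb along the gene's strand), with the gene body as a thick grey line and 50 kb flanks as a thin one; point area grows with height, black marks both replicates, blue replicate 1 only and orange replicate 2 only, and open symbols are starts of other genes. Glis3 carries 12 shared sites spread over its length, and most coloured points are blue.

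All 7 shared sites of Prox1 lay outside the gene and outside its promoter windows. Upstream, within Prox1os, they were centred at -42626 bp (0.931 and 1.37, with 2 footprints in each replicate) and at -3633 bp (0.733 and 0.914). The other 5 lay past the 3′ end, 77225 to 93987 bp along from the 5′ start. The highest by mean height (chromosome 1, 190092121 to 190092220) had heights of 1.45 and 0.871. Replicate 2, which had no Prox1 promoter peak, had peaks on both sides of the gene.

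C1ql2, Npnt, Dsp and Dock10 held further shared sites away from their own starts. C1ql2 had shared sites at -17124 bp (1.38 and 1.28), at 2008 bp over an exon (1.59 and 1.03) and at 16937 bp (1.02 and 0.667). Npnt had a single shared site beyond its start, at -36093 bp over an exon of Gstcd (0.380 and 0.818). In Dsp an intronic site at 11583 bp had heights of 0.578 and 0.559. In Dock10 the highest distal site lay at -5305 bp (1.33 and 0.678).

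Glis3 and Trpc6 had the strongest shared distal sites of the set. In Glis3 an exonic site at 381197 bp (chromosome 19, 28298821 to 28298940) had heights of 2.72 and 1.79, and the intronic site at 243437 bp, whose sequence is printed above, had 1.87 and 2.44. That intronic site held 4 footprints in each replicate, and 3 of the 4 in replicate 1 overlapped one in replicate 2. Beyond the end of Trpc6, at 156728 bp inside the noncoding gene Gm32014, the heights were 5.18 and 1.06. That was the largest replicate difference among the 51 sites, a log2 ratio of replicate 2 to replicate 1 of -2.28. A Glis3 site at -46313 bp (2.67 and 0.99) followed with -1.43.

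At the starts of the members, replicate 2 was higher than replicate 1 at 7 of 10 shared sites, with a median log2 ratio of 0.26. Over all 17355 shared promoter sites replicate 2 was higher at 30.3%, with a median of -0.46. Among the 7678 of these whose mean height fell in the range of the members (0.577 to 2.17), however, it was higher at 53.7%, with a median of 0.07. The 10 sites come from 7 genes, and the 2 Glis3 sites lie in the same replicate 1 peak. Over all 51 member sites the median log2 ratio was -0.17 against -0.48 over all 50780 shared sites, and 20 of the 51 were higher in replicate 2, against 28.7% of all shared sites. This last comparison was not matched for height. The median replicate 1 height was 0.931 at the member sites and 1.48 over all shared sites.

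**Figure D5:**
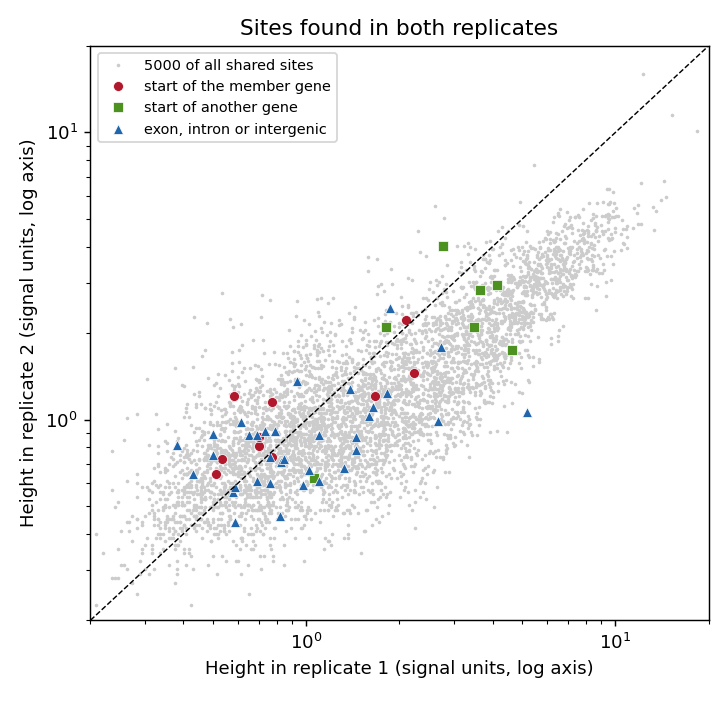
Height in replicate 2 against replicate 1 (signal units, log axes) at the 51 shared member sites by class, over a random draw of 5000 shared sites in grey; the dashed line marks equal heights. Start sites of the members cluster at low heights near the line, and the Trpc6 site at 5.18 and 1.06 lies farthest below it.

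Sites seen in a single replicate made up most peaks near the members in replicate 1, but not in replicate 2. In replicate 1, 113 of 164 peaks (68.9%) had no overlap in replicate 2, against 62.0% of all replicate 1 peaks. In replicate 2, 16 of 66 (24.2%) had none in replicate 1, against 18.2%. Their median heights were 0.513 and 0.683, against 0.503 and 0.549 over all such peaks. Of the 113, 36 overlapped a peak of the shorter list. The other replicate listed an FDR under 0.05 over 10 of the 113 and over 7 of the 16, and had a footprint in 0 of them. Most of the 113, 60, lay in introns, 33 of the total near Glis3. A run of these Glis3 sites was packed between 28542221 and 28551693 on chromosome 19, with heights of only 0.0695 to 0.433. Most sites of this run were among the 36 that overlapped a peak of the shorter list.

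The 5 highest sites of replicate 1 only were spread over 5 genes. They lay in an intron of Dars near Lct (height 1.93), at -12712 bp from C1ql2 (1.82), 51062 bp from the start of Tdo2 past its end (1.76), at the Prox1 start (1.70) and in a Dock10 intron at 176058 bp (1.68). The other replicate listed an FDR only over the Dock10 site, with a lowest value of 0.000344. There the replicate 2 peak (chromosome 1, 80582481 to 80582560, height 0.807) began on the base after the replicate 1 peak ended, so that both counted as single-replicate sites. The 5 highest of replicate 2 only lay at the Dock10 start (1.18), over an Mcm6 exon near Lct (1.01), in a Glis3 intron (0.904) and at -4476 and -4596 bp from Prox1 (0.850 and 0.828). Around these last positions replicate 1 had peaks of its own, centred at -4201 and -4867 bp, that did not overlap them. At the Dock10 start a peak of the shorter list of replicate 1 did overlap the replicate 2 site.

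Most promoter peaks of the members held a footprint. Of 21 promoter peaks of the members in replicate 1, 18 held a footprint, against 79.7% of all promoter peaks, and in replicate 2 10 of 12 did, against 78.3%. The medians per peak were 2 and 1.5, against 2 in each replicate over all. Together they held 44 distinct footprints in replicate 1 and 27 in replicate 2. The peak with the most was that of Trpc6. Of the 51 shared sites 30 held a footprint in both replicates, against 63.5% of all shared sites, and 10 in neither. Of 97 footprints of replicate 1 in these sites, 24 overlapped one of replicate 2.

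The E-box letters were found in member sites as follows. CAGATG occurred, on either strand, in 12 of the 34 sites outside promoter windows (35.3%), against 27.0% of all such sites of the same 200 bp width. CAGCTG occurred in 10 of 34 (29.4%), against 19.9%. TTGGCA, the half-site letters of the nuclear factor I motif, occurred in 3 of 34 (8.82%), against 18.8%. The homeodomain letters TAATTA and the cyclic AMP response letters TGACGTCA occurred in 0 of the 51 sites, against 2.30% and 1.25% of all shared sites. With so few sites these shares were not tested.

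Further granule cell genes and the markers of pyramidal fields give the setting. Of 10 other granule cell genes (Rfx3, Stxbp6, Plk5, Pdzd2, Il16, Synpr, Sema5a, Maml2, Bcl11b and Sipa1l2), 8 had a promoter peak in both replicates, with median heights of 2.28 and 1.57 among those with a peak. Of 8 CA2 and CA3 markers 5 did (medians 2.63 and 1.82), and of 8 CA1 markers 3 (medians 1.21 and 2.10). A peak in replicate 1 only was present at 3 of the 8 CA1 markers, Fibcd1, Mpped1 and Dcn, and at 1 of the 8 CA2 and CA3 markers. The difference between these lists and the 10 members was not tested.

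Genes of other cell types were counted in the same way, to be read against the 57.1% of all genes with a shared promoter peak. Of 8 genes of telencephalic excitatory neurons 7 had a shared promoter peak, as did 5 of 8 astrocyte, 5 of 8 oligodendrocyte and 3 of 8 interneuron genes. Among 8 microglial, 8 endothelial, 8 choroid plexus and ependymal and 8 liver genes the count was 1 each. Median heights were 0.770 and 0.656 for the interneuron, 0.818 and 1.59 for the astrocyte and 1.42 and 1.02 for the oligodendrocyte genes with a peak, in replicates 1 and 2. In replicate 1 against replicate 2 a promoter peak was present at 7 and 5 astrocyte, 6 and 5 oligodendrocyte, 5 and 4 interneuron and 3 and 1 microglial genes. The part of cell composition in the replicate differences at Prox1, Tdo2 and Lct was not tested.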

How the data were processed

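DNase-seq peaks, footprints and FDR intervals of 2 replicates were used, which the authors made for each replicate separately on mm10, per the labels and the deposited file listings. The callers and thresholds used are not given in those sources. Column 7 of the deposited peak lists was read as signal height. All heights under 500 steps were whole multiples of 1 step within 0.02 steps, and the reciprocals of the steps were 187 and 93, the depths in M cuts if heights are scaled as in CPM. FDR values as deposited were taken as q-values, and the constant 0.01 of the footprint file was not used as a p-value.

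The longer list (132685 and 59880 peaks) was the main list, the shorter one (78444 and 31177) an alternative. Peaks lay within the GRCm38 chromosome lengths in 42 of 42 replicate and chromosome pairs. Classes used protein-coding genes only. Overlap code (Python 3.11.15, bedtools 2.31.1, pysam 0.24.0) was tested on simulated data. Members, lists, motifs and the rule for named sites (per member the highest shared site outside its promoter, and the 5 highest sites of each replicate only) were chosen with earlier results of these data known. A further result of the CA1 list is not reported here.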

Additional observations from a re-analysis of the deposited data

How the results depend on the processing

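Both replicates together gave 7 members with an open promoter, and other promoter windows, the shorter lists and 50% reciprocal overlap gave 5 to 7. With lists of equal length the number was 4, and with either replicate left out it ranged from 7 to 10. No share of all genes is given for other windows, 50% reciprocal overlap or lists of equal length. The 51 shared sites became 22 in the shorter lists, 28 with 50% reciprocal overlap and 33 with a flank of 10 kb, and the peaks of a single replicate, with the other left out, ranged from 66 to 164. The 129 sites in 1 replicate only became 65 in the shorter lists and 52 with lists of equal length. The 71 promoter footprints of both replicates were 27 to 44 with a replicate left out. By construction the shorter lists and the lists of equal length hold fewer peaks, the 10 kb flank a narrower region, and 50% reciprocal overlap a stricter match of the same peaks. Beyond this the cause was not tested. Of 140 values for single genes under these alternatives, 80 stayed within 1.5 times the main value and 60 did not. No paired analysis was possible because the series holds 1 group. Replicate 2 was the shallower only if height steps are read as cuts, and the part of depth in peaks missing there was not tested.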

Other observations

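The 2 distal member sites with the largest drop from replicate 1 to replicate 2 both carried letters of the CTCF motif core, a motif read by the looping and insulator protein CTCF, inside a footprint. They are shown with footprint bases of either replicate in capitals, on the strand of the gene.
Trpc6 downstream (chr9:8700781-8700960, plus strand): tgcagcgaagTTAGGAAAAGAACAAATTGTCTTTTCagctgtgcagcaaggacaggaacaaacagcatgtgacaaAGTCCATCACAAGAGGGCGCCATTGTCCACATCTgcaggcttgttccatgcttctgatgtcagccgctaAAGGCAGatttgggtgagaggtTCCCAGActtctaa
Glis3 upstream (chr19:28726301-28726480, minus strand): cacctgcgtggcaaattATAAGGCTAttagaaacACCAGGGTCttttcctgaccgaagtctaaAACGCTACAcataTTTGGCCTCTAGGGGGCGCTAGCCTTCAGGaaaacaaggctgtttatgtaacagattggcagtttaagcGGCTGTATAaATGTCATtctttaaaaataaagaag
The letters AGAGGGCGC stand in the Trpc6 sequence and AGGGGGCGC in the Glis3 sequence. Footprints of both replicates covered 33 bases of the first and 14 of the second. This search was chosen after the sequences had been seen, and neither set of letters contains a motif counted above. Over all shared sites outside promoter windows, 1591 (4.76%) held either set of letters on either strand in the central 200 bp. On the log2 scale their heights in replicate 2 relative to replicate 1 had a median of -1.10, and 3.65% were higher in replicate 2. The other 31834 had a median of -0.45, and 29% were higher in replicate 2. At shared promoter sites the medians were -0.71 with the letters and -0.45 without. Sites with and without the letters were not matched for height, with which this ratio varied at shared promoter sites. Replicate 2 was higher at 30.3% of all shared promoter sites and at 53.7% of those with mean heights of 0.577 to 2.17. A C1ql2 exon site (log2 ratio -0.62) and a Glis3 intron site at 313995 bp (-0.04) also held the letters. What sets the replicates apart at such sites was not tested.

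Some sites counted as seen in 1 replicate only lay close to a peak of the other replicate. Within 100 bp of one were 9 of the 113 member sites of replicate 1 only (7.96%, against 4.11% of all such sites) and 7 of the 16 of replicate 2 only (43.8%, against 27%). The Dock10 intron pair, whose peaks touch without sharing a base, counts in both groups.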
